A study of Mus musculus with 6 samples.

Results

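Secretory, Paneth, tuft and endocrine lineage markers of the intestine were followed by 10 genes chosen by name, all of which had a row among the 21959 genes used of 21966 in the table. The genes are Atoh1, Spdef, Muc2, Tff3, Agr2, Lyz1, Chga, Neurog3, Dclk1 and Reg3g. RNA-seq compared primary tumor cells in culture from mice that carried CDX2P-NLS-Cre, APC^Δ/+ and ROSA26-PID (PID+ cells; mice numbered 4, 7 and 26) with cells from mice that carried CDX2P-NLS-Cre and APC^Δ/+ alone (PID- cells; mice numbered 1, 2 and 3 in the labels, which call them normal and untreated). PID is a peptide from the autoinhibitory region of Pak1, fused to GST, that blocks group I Pak kinases. It is expressed from the Rosa26 locus once Cre has removed a stop cassette. Cre is driven by a CDX2 promoter, active mainly in the epithelium of the large intestine and distal small intestine, and both groups carry the Apc deletion. The paper uses other mouse numbers for its PID- cultures, so the label numbers of these samples may be replicate numbers. The age of the mice whose cells were sequenced is not given in the labels. The reads of the 3 samples of a condition had been merged before quantification, so there was 1 pooled FPKM (fragments per kilobase of transcript, scaled to the mapped fragments of a library) per gene and condition, with no spread between mice and no test. The PID transgene, built per the paper from a human PID fragment, had no row. The mouse gene Pak1 stood at 17.6 FPKM in PID+ against 23.4 in PID- cells.

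Secretory cells of the intestine arise from crypt progenitors in which Notch signaling is low and the transcription factor Atoh1 is active. Goblet cells make mucus, Paneth cells make antimicrobial proteins in the small intestine, tuft cells are chemosensory, and enteroendocrine cells release hormones. The colon normally holds goblet, tuft and endocrine cells, and deep crypt secretory cells take the place of Paneth cells.

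Most of the 10 markers were at or near 0 in both cultures, with Dclk1 as the exception and Muc2 uncertain. Of the 10, 9 had an FPKM under 1 in both conditions, against 46.3% of all genes, and 4 were listed at 0 in both, against 19.3% of all genes. No marker rose or fell 3-fold between PID- and PID+ cells, on the scale log2((FPKM in PID+ + 1)/(FPKM in PID- + 1)). Among all genes 1.04% were at least 3-fold higher and 1.72% at least 3-fold lower. Because 1 is added, genes of low FPKM look less changed on this scale than their ratios, and genes that passed 3-fold with 0.1 added were named after their values were seen. A gene needs an FPKM of at least 2 in a condition to reach 3-fold on this scale. Among such genes the shares were 2.08% and 3.42%, and of the 10 markers only Dclk1 could have been counted. At 2-fold the count was also 0, beside 3.31% of all genes higher and 3.77% lower. The deposited intervals were apart between conditions for none of the 9 markers other than Muc2, whose bounds could not be used. All 9 have a lower bound of 0 in both conditions, so their intervals could not be apart. Among all genes 0.187% were apart and higher in PID+ cells and 0.542% apart and lower. The median log2 change was 0.00 both for the 10 markers and for all genes. In bulk cultures, fewer cells of a type and less RNA per cell cannot be told apart.

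The smallest values were read as numbers of reads. In genes with a single annotated transcript, low FPKM values lay on steps. With 180 bases taken off the transcript length, 91.9% of 668 low values in PID+ cells and 91.3% of 645 in PID- cells lay within 0.1 of a whole number of reads, where values without steps would give 20%. A read on a kilobase of such length was worth 0.0145 FPKM in PID+ cells and 0.0106 FPKM in PID- cells, at a ratio of 1.37. For the 10 markers, where a condition is listed at 0, the FPKM of 3 reads is given as the level that 0 reads would still allow. This covers counting error only. Of 135 genes for ribosomal, proteasome, RNA polymerase II and translation initiation factor subunits, chosen after the data were examined, only the testis proteasome gene Psma8 was listed at 0.

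The goblet markers included the regulators of the lineage and its products. Atoh1 (chr6:64729125-64731245, plus strand, GRCm38), the factor that starts secretory fate, was listed at 0 in both conditions. A count of 0 still allowed up to 0.0225 FPKM in PID+ and 0.0164 in PID- cells. Spdef (chr17:27714352-27728955, minus strand), an Ets factor of goblet and Paneth cell maturation, stood at 0.0221 FPKM in PID+ against 0.0462 in PID- cells. These correspond to about 2.65 and 7.57 reads on its longest coding transcript. The ratio was 2.08-fold lower in PID+ cells. Its 95% counting interval on these estimates, rounded to whole reads, ran from 0.467 to 11.4 and includes no difference. On the shortest coding transcript the reads would be 0.67 and 1.91.

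Tff3 (chr17:31125306-31129646, minus strand), the trefoil peptide secreted with goblet cell mucus, was listed at 0 in both conditions. Its transcript of 493 bases is short, so that 0 reads allowed up to 0.139 FPKM in PID+ and 0.102 in PID- cells. Agr2 (chr12:35992907-36004087, plus strand), a disulfide isomerase needed for mucin folding, had an FPKM of 0.0488 in PID+ cells, about 2.03 reads, and was listed at 0 in PID- cells, which allowed up to 0.0527 FPKM. A difference of this size was not detectable at this depth.

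Muc2 (chr7:141690340-141754693, plus strand) encodes the gel-forming mucin of the colon. It stood at 0.687 FPKM in PID+ against 0.603 in PID- cells (log2 change 0.07). The deposited upper bounds, 0.131 and 0.217, lie below these values themselves. An FPKM outside its own bounds occurred in 17 of the 21959 genes, and the interval of Muc2 was not used. The annotation holds 8 coding transcripts of Muc2, from 241 to 2926 bases. The FPKM in PID+ cells would correspond to 2.88 reads on the shortest and 130 on the longest, and in PID- cells to 3.47 and 156. The level of Muc2 is therefore uncertain in both conditions.

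Of the Paneth markers, Lyz1 (chr10:117287797-117292868, minus strand), the lysozyme of Paneth granules, had an FPKM of 0.0135 in PID+ cells, about 1.01 reads, and was listed at 0 in PID- cells, which allowed up to 0.0294 FPKM. Of the 1214 stretches of 50 bases in its transcript, the read length, 195 also occur in Lyz2, the lysozyme of macrophages, so a read within them does not by itself tell the genes apart. Lyz2 was listed at 0 in PID+ cells and had an FPKM of 0.0393 in PID- cells, so neither gene was above this level. Reg3g (chr6:78466269-78468872, minus strand), a lectin that acts on bacteria, was listed at 0 in both conditions, with up to 0.0738 allowed in PID+ and 0.0539 in PID- cells.

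The endocrine markers were at the same low level. Neurog3 (chr10:62133090-62134763, plus strand), the factor that commits progenitors to endocrine fate, was listed at 0 in both conditions. The upper limits were 0.0321 FPKM for PID+ and 0.0234 FPKM for PID- cells. Neurog3 overlaps Fam241b, which shares 229 of the 1491 stretches of 50 bases in its longest coding transcript. Chga (chr12:102554969-102565028, plus strand), chromogranin A of secretory granules, had an FPKM of 0.0517 in PID+ cells, about 6.06 reads, and was listed at 0 in PID- cells, which allowed up to 0.0187 FPKM. Its PID+ value was 2.76 times that limit, with counting error in the 6.06 reads not included. There is no replicate check on so few reads.

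Dclk1 (chr3:55242364-55539068, plus strand), a kinase of tuft cells that neurons also express, was the 1 marker with an FPKM above 1. It had 1.93 in PID+ cells, with a deposited interval from 0 to 4.51, and 2.36 in PID- cells, with an interval from 0 to 5.31. The intervals overlap, and the log2 change was -0.20. Its level exceeded that of 51.9% of all genes in PID+ and 52.3% in PID- cells. Dclk1 has 11 coding transcripts, overlaps Gm21954, and shares 42 of 7913 stretches of 50 bases with Gm42609, on the opposite strand. The libraries did not keep strand, so a read within them does not by itself tell the genes apart. The values do not say which transcripts were present.

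By FPKM as deposited, the order was Dclk1, then Muc2, then the rest in both conditions. The place of Muc2 is as uncertain as its level. In PID+ cells the order went on with Chga, Agr2, Spdef and Lyz1, whose deposited intervals all start at 0 and overlap. In PID- cells only Spdef remained above 0 below Muc2.

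**Figure D1:**
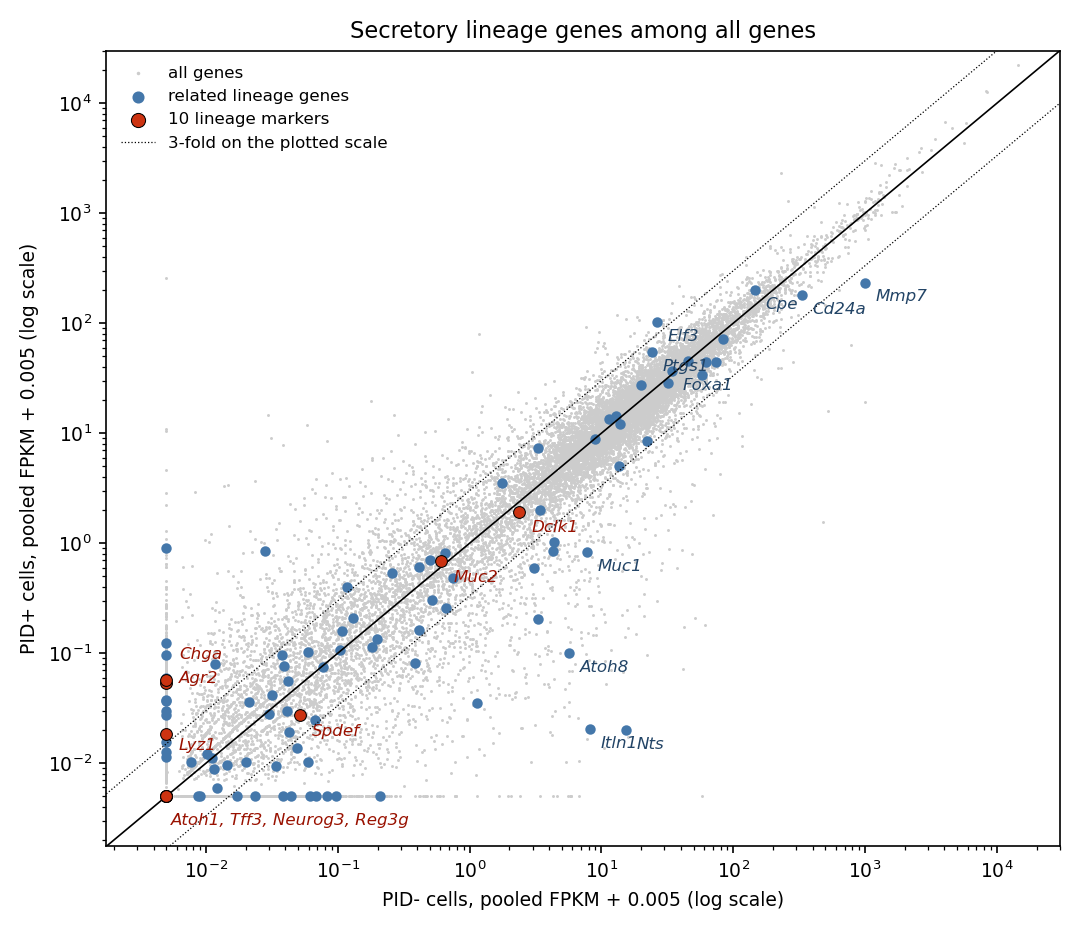
Pooled FPKM in PID- cells (x axis) and PID+ cells (y axis) of the 21959 genes, both on a log scale with 0.005 added, with the 10 markers in red and the genes of the related lineage lists in blue. Each point is 1 gene; the solid line marks equal values and the dotted lines a ratio of 3 on the plotted scale, which is not the scale of the counts. Of the 10 markers, 9 lie under an FPKM of 1 on both axes and Dclk1 lies close to the line of equal values.

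The 10 markers differ in their promoters. RefSeq windows of GRCm38.p6, from 250 bases before to 50 after the start, were matched for 9 of them, and none was matched for Tff3. The windows of Chga, Atoh1 and Neurog3 hold 21, 20 and 19 CpG, and that of Reg3g holds 1. The median was 7 over all 32851 windows. Among genes with a matched window, it was 24 over 7436 averaging 5 FPKM or more, and 2 over 2977 listed at 0 in both conditions. Atoh1 and Neurog3 were thus listed at 0 with CpG counts far above the median of silent genes. The letters TATAAA occur on either strand in the windows of Muc2, Chga and Reg3g, and in 13.6% of all windows.

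Beyond the 10 markers, 119 further genes were matched from 8 lists of goblet, Paneth, tuft and endocrine markers, fate regulators, mucins with trefoil factors, the Reg family and relatives of the 10. Of the 119, 1 passed 3-fold towards PID+ cells and 6 passed it towards PID- cells, beside 1.04% and 1.72% of all genes. An FPKM under 1 in both conditions was found for 88 of the 119, beside 46.3% of all genes. The median log2 change was 0.00, as over all genes. The gene higher in PID+ cells is Elf3. Those lower in PID+ cells are Mmp7, Itln1, Nts, Muc1, Muc20 and Atoh8. Of the 119, 30 had an FPKM of at least 2 in a condition, beside 50.3% of all genes. Among all genes at that level 2.08% were at least 3-fold higher and 3.42% at least 3-fold lower in PID+ cells. Where 2 FPKM values of a gene are given together, the PID+ value comes first. With the FPKM scaled to equal Gapdh, Elf3 no longer counted and 10 genes were lower. That scaling moved the median log2 change of genes averaging 5 FPKM or more by -0.58, while all genes split into 76 higher and 662 lower in place of 229 and 377.

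Of 20 goblet genes none passed 3-fold in either direction and 15 were under an FPKM of 1 in both conditions; the median log2 change was 0.01. The genes with the highest FPKM in either condition were Foxa1, Klf4 and Galnt12, which other epithelia express too. Foxa1 stood at 36.5 FPKM in PID+ against 34.3 in PID- cells. Klf4, a factor of terminal differentiation, stood at 8.5 in PID+ against 22.2 in PID- cells (log2 change -1.29), with overlapping intervals. Galnt12, which starts O-linked glycosylation, had 7.32 and 3.3. When 0.1 instead of 1 was added to the FPKM, Foxa3 (0.845 and 0.0229) passed 3-fold as higher and Creb3l1 (0.841 and 4.3) as lower in PID+ cells. Of the 20, 4 were listed at 0 in both conditions, namely Atoh1, Tff3, Retnlb and Guca2a. The goblet products Clca1 (0.535 and 0.253) and Fcgbp (0.0696 and 0.0718) were low but above 0 in both, while the level of Muc2 was uncertain.

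Of 17 Paneth and deep crypt secretory genes matched, 2 were 3-fold or more below PID- in PID+ cells and none above it, with a median log2 change of 0.00. Mmp7, matrilysin, which in Paneth cells processes defensins and is also known from intestinal tumors, had an FPKM of 234 in PID+ cells (deposited interval 105 to 363) and 993 in PID- cells (435 to 1550). It was 4.25-fold lower in PID+ cells, and the intervals are apart. Itln1, intelectin of goblet and Paneth cells, had 0.0153 in PID+ cells, about 1.01 reads on its longest transcript, and 8.2 in PID- cells. The ratio was 536-fold lower in PID+ cells, with a 95% counting interval from 97 to 21400, while the deposited intervals overlap. Nupr1, a stress-response factor, had 72.5 and 83.7, and Sox9, a factor of crypt base and Paneth cells, had 8.8 and 8.95. Of the 17, 8 were listed at 0 in both conditions, namely Reg3g, Reg4, Ang4, Pla2g2a and the defensin genes Defa5, Defa17, Defa22 and Defa24. For the short transcript of Defa5, 0 reads still allowed 0.222 FPKM in PID+ cells and 0.162 FPKM in PID- cells. Spink4 was listed at 0 in PID+ cells and had 0.202 in PID- cells, about 4.12 reads. It passed 3-fold as lower with a pseudocount of 0.1, but 0 reads in PID+ cells still allowed 0.201 FPKM, so no difference was detectable.

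Of 22 tuft genes none passed 3-fold, 16 were under an FPKM of 1 in both conditions, and the median log2 change was 0.00. Cd24a, a surface protein shared with progenitor cells, stood at 179 FPKM in PID+ against 333 in PID- cells. Ptgs1, cyclooxygenase of the constitutive type, had 54.2 and 24.1 (log2 change 1.13). Plcg2, a phospholipase, had 13.4 and 11.3. The factor that specifies tuft cells, Pou2f3, had 0.00603 and 0.00611, each near 1 read. Other tuft genes lay above that level, among them Alox5 (3.52 and 1.76) and the channel gene Trpm5 (0.158 and 0.407). Trpm5 overlaps Tssc4, and its deposited intervals run from 0 to 2.08 and from 0 to 3.44. The part of Tssc4 in its values was not tested. Sh2d6 (0.0299 and 1.14), about 2.47 reads in PID+ cells, passed 3-fold as lower with a pseudocount of 0.1. Its ratio was 38.1 with a 95% counting interval from 12.8 to 393, while the deposited intervals overlap. Sh2d6 has 8 coding transcripts, so its reads are approximate. Of the 22, 3 genes, Gfi1b, Rgs13 and Bmx, were listed at 0 in both conditions.

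Of 32 endocrine genes, 30 were under an FPKM of 1 in both conditions and 11 were listed at 0 in both. None was at least 3-fold higher and 1 at least 3-fold lower, with a median log2 change of 0.00. That gene, Nts, encodes neurotensin, a peptide hormone of the distal gut. It had an FPKM of 0.0148 in PID+ cells (interval 0 to 0.0503), about 1.08 reads, and 15.3 in PID- cells (0.336 to 30.3). The intervals are apart, and the ratio of 1040 had a 95% counting interval from 202 to 44500. Cpe, a peptidase that trims prohormones and is expressed in many secreting cells, had 199 and 147. Pax6, an endocrine transcription factor, had 0.473 and 0.742. Tph1, which makes serotonin, had 0.0745 and 0.00673, about 22.5 and 2.78 reads on its longest coding transcript. The ratio of 11.1 towards PID+ cells had a 95% counting interval from 3.02 to 52.4 on those reads. On the shortest coding transcript the reads would be 2.04 and 0.252, and the deposited intervals overlap. Tph1 was named after its values were seen. The hormone genes Gcg, Gip, Sct and Ghrl were listed at 0 in both conditions, as were Neurod1 and Pax4. Pyy, Insl5, Sst and Cck were above 0 in 1 condition only, and on few reads. Pyy had 0.119 in PID+ cells, about 3.07 reads, while 0 reads in PID- cells allowed 0.0849. In PID- cells Insl5 had 0.0918, Sst 0.0772 and Cck 0.0638, about 4.45, 3.93 and 3.72 reads on the longest coding transcripts. In the same order, 0 reads in PID+ cells still allowed 0.0847, 0.0806 and 0.0704 FPKM, so for Sst and Cck no difference was detectable.

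Of 21 genes that set secretory fate none passed 3-fold, 11 had an FPKM of at least 2 in a condition, beside 50.3% of all genes, 10 were under 1 in both, Atoh1 and Neurog3 among them, and the median log2 change was -0.01. Xbp1, a factor of the secretory apparatus, stood at 44.4 FPKM in PID+ against 62.6 in PID- cells. Hes1, a target of Notch that represses Atoh1, had 34.1 and 58.3 (log2 change -0.76) with overlapping intervals; it lies on chromosome 16, and with the median of that chromosome taken off it was at -0.25. Sox4 had 45.2 and 45.5. Foxa2 (1.01 and 4.35) passed 3-fold as lower in PID+ cells with a pseudocount of 0.1. The receptors Notch1 (12 and 13.7) and Notch2 (14.2 and 12.8) had FPKM above 10, as did the ligand gene Jag1 (27.6 and 20). The ligand genes Dll1 (0.296 and 0.512) and Dll4 (0.205 and 0.125) were below 1 in PID+ and PID- cells. These Notch genes were named after their values were seen.

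Of 14 mucin and trefoil genes matched, 2 were 3-fold or more below PID- in PID+ cells and none above it, with a median log2 change of 0.00. Both are mucins of the cell membrane. Muc1 stood at 0.817 FPKM in PID+ against 7.81 in PID- cells (log2 change -2.28). Muc20 had 0.2 and 3.29 (log2 change -1.84). Muc4, also a membrane mucin, had 4.98 and 13.6 (log2 change -1.29). The deposited intervals of Muc1, Muc4 and Muc20 overlap. Muc4 and Muc20 overlap each other on chromosome 16, where the median log2 change of 277 genes was -0.50, and with that median taken off Muc20 was at -1.33 and no longer counted. Among the trefoil factors, Tff1, a gastric peptide, had 0.897 in PID+ cells and was listed at 0 in PID- cells; the former corresponds to 32.3 reads on its longest and 5.68 on its shortest coding transcript. Tff2 had 0.0366 and 0.0267, about 1.02 reads each, and Tff3 was listed at 0.

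The Reg family lay at or below 0.0364 FPKM in both conditions. Of 7 genes, 3 were listed at 0 in both conditions, namely Reg2, Reg3g and Reg4, and none passed 3-fold; the median log2 change was 0.00. Reg1 stood at 0.025 FPKM in PID+ against 0.0364 in PID- cells. Reg3a had 0.0224 and Reg3d 0.0318 in PID+ cells, both listed at 0 in PID- cells, and Reg3b was listed at 0 in PID+ cells and had 0.0185 in PID- cells. At these levels no difference was detectable.

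Relatives of the 10 markers were in part far more abundant than the markers. Of 18 genes, the markers of the list included, 1 was higher, 1 lower, and the median log2 change was 0.00. Elf3 and Ehf are Ets factors of epithelia, as Spdef is. Elf3 had an FPKM of 103 in PID+ cells (deposited interval 43.8 to 163) and 26.3 in PID- cells (8.61 to 44) (log2 change 1.93), and the intervals just overlap. With the FPKM scaled to equal Gapdh its log2 change was 1.32, under the 3-fold threshold. Ehf had 44.2 and 74.2. Atoh8, a distant relative of Atoh1 with wider expression, had 0.0943 and 5.69 (log2 change -2.61). Dclk2 had 0.591 and 3.09 (log2 change -1.36), and Dclk3 had 0.00519 and 0.015. Agr3, next to Agr2, was listed at 0 in both conditions.

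**Figure D2:**
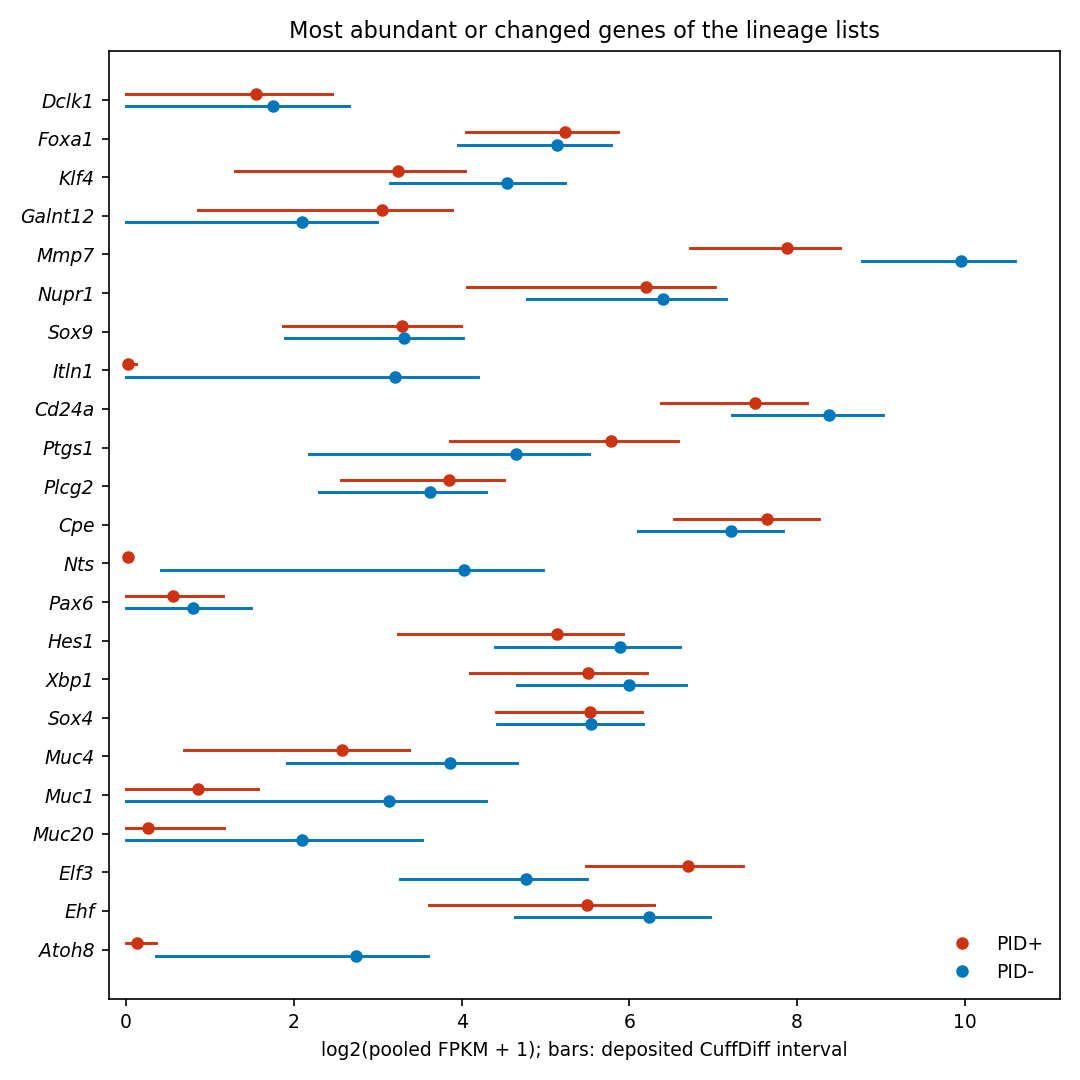
Levels of Dclk1 and of the most abundant or 3-fold changed genes of the goblet, Paneth, tuft, endocrine, fate, mucin and relatives lists in PID+ cells (red) and PID- cells (blue). The x axis is log2(pooled FPKM + 1), points are the deposited values and bars the deposited CuffDiff intervals. The bars of Mmp7 and Nts are apart, and the others overlap.

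The labelled origin was compared with markers of other cell types. Of 10 epithelial genes, 2 were 3-fold or more above PID- in PID+ cells and none below it, with a median log2 change of 1.09 and an FPKM sum of 9660 for PID+ and 5290 for PID- cells. Krt18 (2840 and 1200), Krt8 (2740 and 1320) and Krt19 (2470 and 2070) were the most abundant in PID+ and PID- cells. Epcam had an FPKM of 401 and 124 and Cldn7 274 and 79.4, and with the FPKM scaled to equal Gapdh neither counted as 3-fold higher. Vil1, villin of the brush border, had only 0.175 and 0.0614.

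Of 14 absorptive colonocyte genes, 2 were at least 3-fold lower and none higher, with a median log2 change of 0.00 and an FPKM sum of 275 for PID+ and 260 for PID- cells. Car2 had 113 and 169 and Krt20 158 and 73.5. Cdx2, the intestinal homeobox factor, had 0.542 and 8.04, and Car1 was listed at 0 in PID+ cells and had 5.55 in PID- cells. Fabp2 (1.42 and 0.395) passed 3-fold as higher in PID+ cells with a pseudocount of 0.1. The cultures had epithelial keratins, and Krt20 and Car2 of these 14 genes were abundant. Alpi, Car4, Fabp1 and Cdx1 of the 14 were listed at 0 in both conditions, as were Atoh1, Tff3, Neurog3 and Reg3g.

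Of 8 stem and cycling crypt genes, 3 were at least 3-fold lower, namely Lgr5 (0.755 in PID+ and 6.27 in PID- cells), Smoc2 (0.0276 and 5.18) and Axin2 (18.1 and 59.6), and none was higher, with a median log2 change of 0.00 and a summed FPKM of 499 and 337. The cycling genes Top2a (257 and 138) and Pcna (154 and 98) were the most abundant in both conditions, followed by Mki67 (68.9 and 29.4) in PID+ cells and by Axin2 in PID- cells.

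Of 10 fibroblast genes, 5 were 3-fold or more below PID- in PID+ cells and none above it, with a median log2 change of -1.65 and an FPKM sum of 22.2 for PID+ and 1030 for PID- cells. Vim made up most of this sum, with 19.1 in PID+ and 997 in PID- cells, and tumor epithelium can also express it. Col1a1 had 2.32 and 11.9, Col1a2 0.0654 and 11.9, and Col3a1 0.339 and 6.35. Dcn was listed at 0 in PID+ cells and had 2.39 in PID- cells, while Lum was listed at 0 in both and Pdgfra had 0.188 and 0.243. With a pseudocount of 0.1, 8 of the 10 were lower. The part of fibroblast RNA in the values of Mmp7, Nts, Itln1, Muc1, Muc20 and Atoh8, and in that of Dclk1, was not tested.

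Other cell types left little RNA. Of 11 myeloid genes none passed 3-fold, with a median log2 change of 0.02 and an FPKM sum of 52.2 for PID+ and 46.2 for PID- cells. Cd14 (29.1 and 28.6) and Cd68 (21.8 and 16.8), which epithelial cells can express, made up most of that sum. S100a9 had 0.707 and 0.0652, past 3-fold with a pseudocount of 0.1, and Ptprc, which all leukocytes express, had 0.0264 and 0.00811. Of 5 lymphoid genes matched none passed 3-fold; the median log2 change was 0.00, the sum was 0.145 and 0.0339, the most abundant were Cd79a (0.126 and 0.025) and Ms4a1 (0.0184 and 0.0089), and Cd3e and Cd3d were listed at 0. Of 8 mast cell genes none passed 3-fold; the median was 0.00, the sum was 0.798 and 0.852, led by Kit, with Cpa3, Tpsb2 and Tpsab1 at 0. With a pseudocount of 0.1, Hdc (0.0134 and 0.284) passed 3-fold as lower, while Cma1 had 0.148 in PID+ cells and was listed at 0 in PID- cells. Mcpt4 had 0.0363 and 0.158. Of 6 endothelial genes none passed 3-fold, with a median of 0.01 and a sum of 3.95 and 1.41, led by Kdr (3.33 and 1.01), and Cldn5 was at 0. With a pseudocount of 0.1, Kdr and Cdh5 (0.219 and 0.00279) passed 3-fold as higher in PID+ cells, while Vwf had 0.291 and 0.285. Of 7 neuron and glia genes none passed 3-fold, with a median of 0.02 and a sum of 1.76 and 2.9, led by Ret (0.681) in PID+ cells and by Tubb3 (2.15) in PID- cells, and Sox10 was at 0. With a pseudocount of 0.1, Snap25 (0.548 and 0.0823) passed 3-fold as higher and Tubb3 (0.296 and 2.15) as lower in PID+ cells. Tubb3 overlaps Gm20388, and its deposited intervals, 0 to 18.4 and 0 to 65.4, leave its level uncertain. Of 10 gastric and pyloric genes none passed 3-fold, with a median of 0.00 and a sum of 1.18 and 0.239, led by Tff1 (0.897) and Gkn1 (0.141) in PID+ cells and by Aqp5 (0.0855) in PID- cells, and Gkn2 was at 0; with a pseudocount of 0.1 Tff1 passed 3-fold as higher in PID+ cells.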

How the data were processed

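Per the labels, RNA was selected for poly A, made into TruSeq libraries without strand and read at 50 bases, in pairs by the methods. The authors trimmed reads with cutadapt, checked them with FastQC, aligned them with TopHat and Bowtie2 to GRCm38.p3 and protein-coding annotation, merged the 3 sets of reads of a condition and deposited 1 FPKM per gene and condition from CuffDiff, with bounds that cover its own error model only. Labels name 3 mice per condition, while the methods speak of replicated sequencing runs. The labels' treatments were used to read the treated rows as PID+ and the untreated rows as PID-, which no transgene row could check. The paper reports less Vimentin and Lgr5 RNA, more E-Cadherin RNA and more ESRP1 protein in PID+ cells. With this reading Vim (19.1 and 997), Lgr5 (0.755 and 6.27), Cdh1 (192 and 88) and Esrp1 (36.6 and 15) ran the same way. Other RNA changes that the paper reports, among them those of N-Cadherin and c-myc, were not compared. Mki67 (68.9 and 29.4) was higher in PID+ cells, whose proliferation the paper reports as lower. Symbols matched 21734 of 21966 genes, and 7 genes with a status other than OK were left out. 3 listed genes are not reported here. Log2 changes used a pseudocount of 1 and a 3-fold threshold. Transcripts and positions came from Gencode M21. Reads were estimated from single-transcript genes over 31 length corrections, and are approximate for other genes. Counting intervals are exact binomial intervals on these estimates rounded to whole reads. The 10 markers, relatives of the Reg, Lyz, Tff, Agr and Dclk families, and each list's 3-fold changed and 3 most abundant genes are named. The members and lists were chosen with earlier results of these data known. Calculations used Python with numpy, pandas and scipy, and were checked on simulated data.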

Additional observations from a re-analysis of the deposited data

How the results depend on the processing

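The counts of 0 for the 10 markers at least 3-fold higher and at least 3-fold lower were the same with a pseudocount of 0.1, with FPKM scaled to equal totals, upper quartiles or Gapdh, with each chromosome's median taken off, with a mean FPKM of at least 1, at 2-fold, and where the deposited intervals also had to be apart. With 9 of the 10 under an FPKM of 1 in both conditions, these counts say little of their stability, and only 1, Dclk1, has a mean FPKM of at least 1. The deposited intervals of the 9 markers other than Muc2 start at 0 in both conditions and could not be apart. Over these settings the log2 changes of the 10 lay between -0.58 and 0.60. With a pseudocount of 0.1, 3 of the 119 related genes were higher and 11 lower, and 621 and 795 of all genes. Foxa3 and Tff1 were added above, and Creb3l1, Foxa2, Dclk2, Sh2d6 and Spink4 below, of which Spink4 was within the level that 0 reads allow. With equal Gapdh, 0 related genes were higher and 10 lower, and 76 and 662 of all genes. The share of higher among called genes was 37.8% as deposited and 10.3% with equal Gapdh. Of 19 other named genes past 3-fold, the threshold was missed by Epcam with equal totals (1.58 on the log2 scale), by Epcam (1.06), Cldn7 (1.15) and Elf3 (1.32) with equal Gapdh, and by Muc20 (-1.33) with the chromosome median taken off, and no direction turned. That last setting added Creb3l1 (-1.61) and Dclk2 (-1.62), so that 7 related genes were lower. The cause of these shifts was not tested.

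With 1 pooled value per condition, neither the spread between mice nor the weight of a single mouse in a value is known. No paired analysis was possible because the table holds no values per sample. Reads estimated for genes with several transcripts depend on the transcript, as for Muc2 and Dclk1. For markers listed at 0, differences under the level of 3 reads were not detectable.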
